A study of Mus musculus with 18 samples.

Results

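Targets of the peroxisome proliferator-activated receptors (PPARs) and enzymes of fatty acid oxidation were described as 10 genes: Angptl4, Cpt1a, Cpt2, Pdk4, Acadl, Acadm, Acaa2, Fabp4, Fabp3 and Plin2. The members were selected on earlier results of these data, in which Angptl4 and Cpt1a passed the thresholds at 24 h after both exchanges, and the others were added as genes of the same pathway. They were taken by gene name from the table of raw read counts, which lists 55487 genes. Each of the 10 genes had 1 row in the table, and all 10 passed the filter on low counts that left 15381 genes. The cells were mouse embryonic fibroblasts (MEFs), a wild type (WT) cell line, grown in medium with fetal bovine serum (FBS). Scm is the complete medium made with S-FBS, a serum in which the cells were sensitive to ferroptosis, a death driven by lipid peroxidation. Rcm is the complete medium made with R-FBS, a serum in which they were resistant. MEFs kept in Scm or in Rcm formed the 2 starting groups. For S-Rcm 12 h and S-Rcm 24 h, cells from Scm were given Rcm for the time in the name. For R-Scm 12 h and R-Scm 24 h, cells from Rcm were given Scm in the same way. No ferroptosis inducer is named in the labels of these samples. Each of the 6 groups held 3 libraries, and the labels do not say whether these came from separate cultures, so a p-value below measures only the spread between these libraries. Each group is 1 cell line in 1 serum of its kind, so serum type and serum lot cannot be told apart.

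PPARs are nuclear receptors that bind fatty acids and their derivatives and act on DNA together with a retinoid X receptor. In many tissues they raise genes for the binding, storage and oxidation of fatty acids. Long-chain fatty acids enter mitochondria through the carnitine shuttle, in which CPT1A is the regulated outer step and CPT2 the inner step. The chain is then shortened by acyl-CoA dehydrogenases, such as ACADL and ACADM, and by a thiolase, such as ACAA2. PDK4 inhibits pyruvate dehydrogenase and so spares glucose, FABP3 and FABP4 carry fatty acids in the cytosol, PLIN2 coats lipid droplets, and ANGPTL4 is a secreted inhibitor of lipoprotein lipase.

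The total count was between 14534906 and 20313715 reads per library. Of 10 fibroblast markers, 9 were among the genes tested, and Lum was at 3 counts or fewer in each library. Of 8 adipocyte markers, Adipoq, Cidec, Lep, Retn and Cfd were at 0 counts in all 18 libraries, Plin1 did not exceed 2 counts, and Lipe and Cebpa were expressed. Of 6 macrophage markers, Adgre1 was at 0 counts, and Ptprc, Itgam and Cx3cr1 did not exceed 3. Csf1r did not exceed 6 counts, while Cd68 had between 31 and 86 counts per library. Of 6 endothelial, 4 epithelial and 7 muscle markers, 2, 1 and 2 were among the genes tested. The highest counts there were 30 for the endothelial marker Kdr and 92 for the muscle marker Acta1. The 3 R-Scm 24 h libraries stood farthest from each other, with replicate 1 the most distant, at a root mean square log2 difference of 0.626 from the other two. In these bulk samples, fewer cells of a type and less RNA per cell cannot be told apart.

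Per length of transcript, Plin2 and Acadl were the highest of the 10 genes and Fabp4 and Fabp3 the lowest. Levels in this paragraph are CPM (counts scaled to the size of the library) per kilobase of the longest coding transcript, over the 18 libraries. Plin2 lay between 65.8 and 98.8, and Acadl between 38.8 and 57.7. Acaa2 lay between 19.5 and 32.2, Cpt1a between 13 and 31.7, and Acadm between 10.4 and 18.6. Angptl4 lay between 2.31 and 12.4, Cpt2 between 5.85 and 8.58, and Pdk4 between 0.598 and 2.65. Fabp4 lay between 0.239 and 2.75, and Fabp3 between 0.0809 and 1.35. Neighbours in this order overlapped in many cases, and only the ranges of Plin2 and of Acadl were clear of the range of each other gene. The widest relative range between group means among the members was that of Angptl4, whose highest group mean was 4.01 times the lowest.

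**Figure D1:**
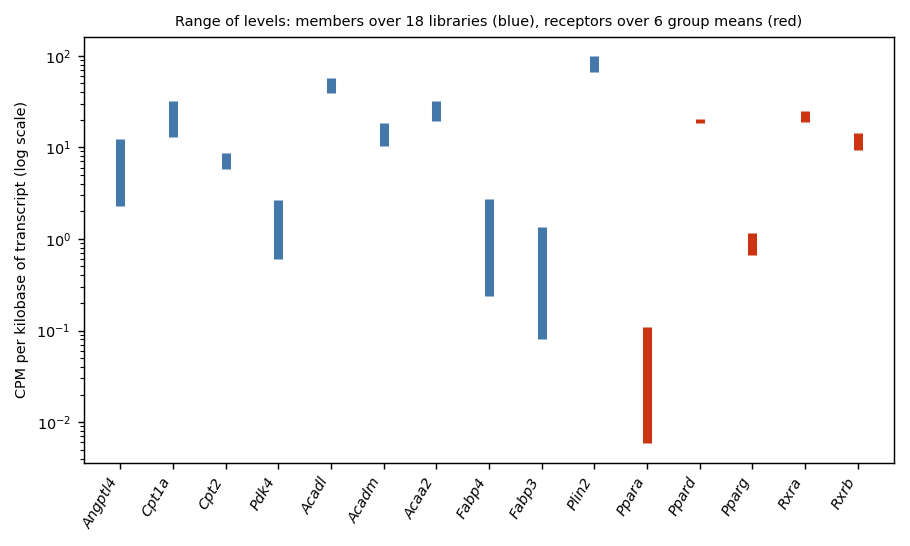
CPM per kilobase of the longest coding transcript, on a log axis, for the 10 genes (blue bars, lowest to highest of the 18 libraries) and for 5 nuclear receptors (red bars, lowest to highest of the 6 group means). Plin2 is highest, at 65.8 to 98.8, and Ppara is lowest, with a highest group mean of 0.11.

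Among the receptors themselves, Ppard was the most abundant PPAR, with group means of 18.5 to 20.2 CPM per kilobase. Pparg group means were 0.67 to 1.17 CPM per kilobase. Ppara had between 0 and 9 counts per library and was not tested. Of the retinoid X receptors, Rxra group means were 19.1 to 24.8 CPM per kilobase, while Rxrg was at 0 counts in each library. The list of 17 receptors and cofactors held 15 tested genes, and edgeR called 0 of them in each of the 6 comparisons below. In these comparisons 0.338% to 2.74% of all genes tested were called in either direction, so 0 of 15 lies near that share. At an unadjusted p under 0.05 the number ranged from 0 to 6 over these comparisons, and DESeq2 also called 0. The 6 were in S-Rcm 12 h against R-Scm 12 h, where 3293 of all 15381 genes tested had such a p.

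Angptl4 (ENSMUSG00000002289, GRCm38 chr17:33773750-33781830, minus strand) had the largest ratio between group means of the 10 members. Its levels in Scm were 8.83, 8.32 and 7.63 CPM. In Rcm they were 30.8, 27.0 and 29.2 CPM. After the move to Rcm they were 35.7, 28.1 and 35.6 CPM at 12 h and 22.5, 34.6 and 40.9 CPM at 24 h. All libraries that were in Rcm when collected were above all libraries that were in Scm. After the move to Scm the levels were 15.8, 13.3 and 15.7 CPM at 12 h and 11.2, 15.3 and 12.7 CPM at 24 h. These R-Scm libraries lay between the 2 starting groups and overlapped neither.

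Ordered by group mean, Angptl4 ran from 33.1 ± 4.37 CPM (SD, n = 3) for S-Rcm 12 h through 32.7 ± 9.33 for S-Rcm 24 h, 29.0 ± 1.90 in Rcm, 14.9 ± 1.43 for R-Scm 12 h and 13.1 ± 2.10 for R-Scm 24 h to 8.26 ± 0.602 in Scm. The 3 groups in Rcm when collected overlapped as neighbours, as did the 2 R-Scm groups.

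Cpt1a (ENSMUSG00000024900, GRCm38 chr19:3322334-3385733, plus strand) separated the same groups at a higher level. It was at 64.3, 61.8 and 67.3 CPM in Scm and at 137, 134 and 137 CPM in Rcm. S-Rcm 12 h gave 123, 132 and 120 CPM, and S-Rcm 24 h gave 118, 117 and 123 CPM. All of these were above each library collected in Scm. R-Scm 12 h gave 72.4, 80.7 and 69.0 CPM, above all 3 Scm libraries. R-Scm 24 h gave 96.8, 56.1 and 60.9 CPM, so that its replicate 1 was above all Scm libraries and the other two were below them.

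The order of the Cpt1a group means was Rcm at 136 ± 1.39 CPM (SD, n = 3), S-Rcm 12 h at 125 ± 6.27, S-Rcm 24 h at 119 ± 3.45, R-Scm 12 h at 74.0 ± 6.04, R-Scm 24 h at 71.3 ± 22.3 and Scm at 64.5 ± 2.72. Rcm did not overlap S-Rcm 12 h, and S-Rcm 24 h did not overlap R-Scm 12 h. The other neighbours overlapped.

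**Figure D2:**
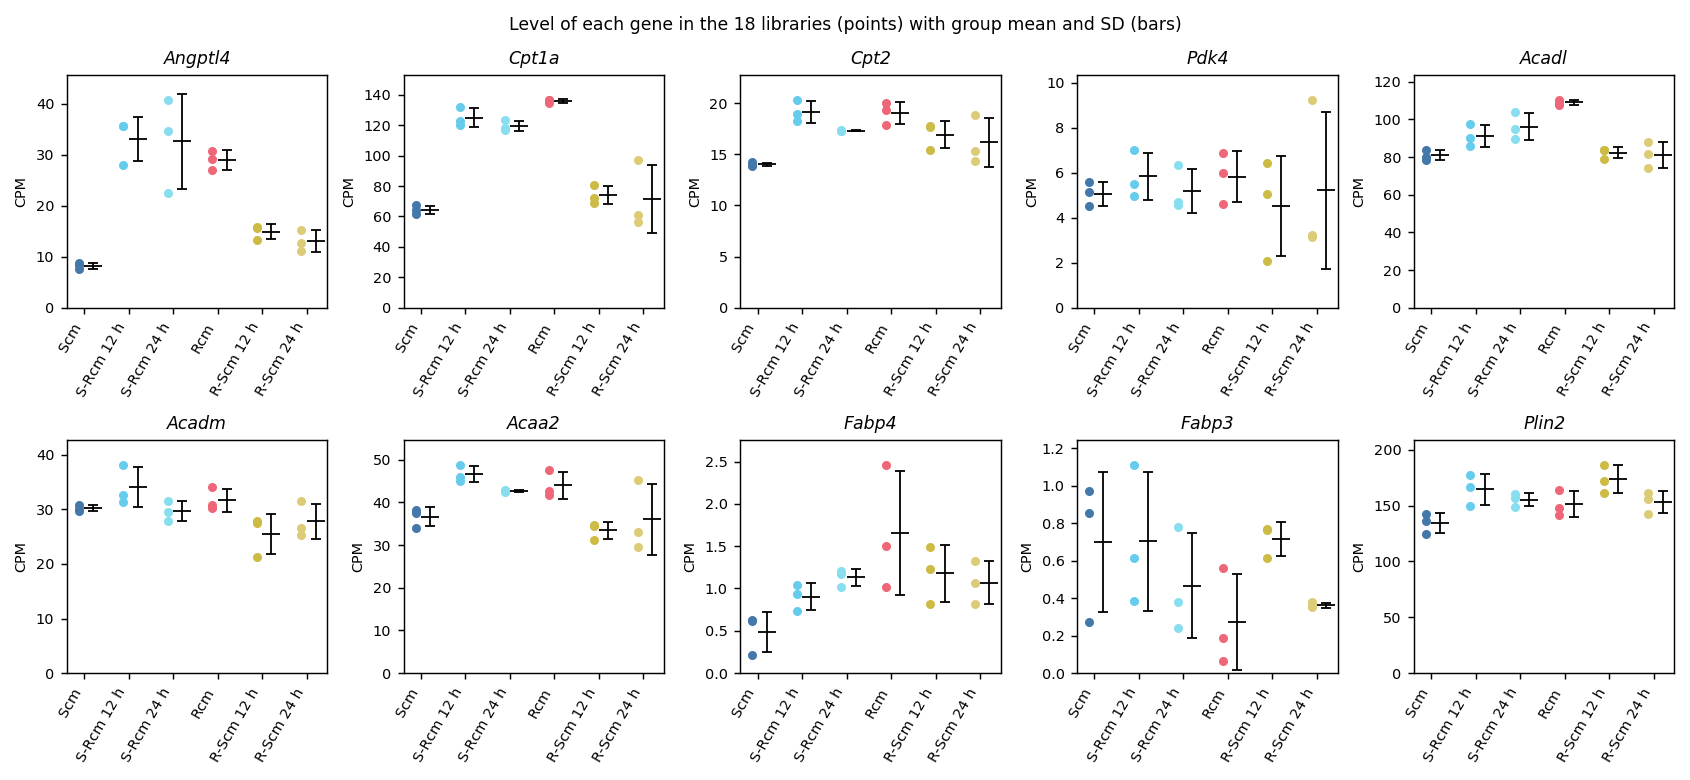
CPM (vertical axis, from 0) of each of the 10 genes in the 6 groups (horizontal axis). Points are libraries, and bars are the group mean and SD of 3 libraries. Angptl4 and Cpt1a are high in the 3 groups collected in Rcm and low in the 3 groups collected in Scm, while the points of Pdk4 overlap in all groups.

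Of the remaining members, Acadl ranged over the group means from 109 ± 1.33 CPM in Rcm to 80.9 ± 2.69 in Scm, and Cpt2 from 19.2 ± 1.08 in S-Rcm 12 h to 14 ± 0.184 in Scm. Acaa2 ranged from 46.6 ± 1.94 in S-Rcm 12 h to 33.4 ± 2.02 in R-Scm 12 h, and Acadm from 34.0 ± 3.65 to 25.5 ± 3.64 in the same groups. Plin2 ranged from 173 ± 12.5 in R-Scm 12 h to 134 ± 9.25 CPM in Scm. Acadl, Cpt2, Acaa2 and Acadm were thus each highest in a group collected in Rcm, whereas Plin2 was highest in a group collected in Scm.

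Pdk4 group means lay between 4.52 ± 2.22 CPM (R-Scm 12 h) and 5.83 ± 1.05 CPM (S-Rcm 12 h), and each neighbour in the order overlapped the next. Its highest and lowest libraries both followed the move to Scm, at 9.25 CPM for replicate 1 of R-Scm 24 h and 2.08 CPM for replicate 3 of R-Scm 12 h. Pdk4 therefore varied more within these 2 groups than between group means.

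The FABP genes rested on few reads. Fabp4 (ENSMUSG00000062515, GRCm38 chr3:10204088-10208576, minus strand) had 4, 9 and 9 counts in Scm, against 24, 37 and 20 in Rcm. After the move to Rcm it had 19, 13 and 16 counts at 12 h and 20, 21 and 16 at 24 h. After the move to Scm it had 15, 29 and 20 counts at 12 h and 18, 21 and 16 at 24 h. The 3 Scm libraries were thus the lowest in Fabp4. Fabp3 had between 1 and 19 counts per library, with the lowest group mean, 0.271 ± 0.257 CPM, in Rcm. Fabp3 shares 81 exon bases with Zcchc17 on the other strand, and it is 99.3% identical over 402 bases to the pseudogene Fabp3-ps1, which had 58 counts in all against 168 for Fabp3. Its values are therefore uncertain. Transcripts of Cpt1a share stretches of up to 335 bases, at up to 94.1% identity, with those of 204 other genes, and Acadm is 93.5% identical over 681 bases to Gm5131, which had 112 counts in all against 9198 for Acadm.

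Promoter windows were available in the RefSeq table for Cpt1a, Cpt2, Pdk4, Acadl, Acadm, Fabp3 and Plin2. The 250 bases before each start were searched on both strands for AGGTCA, the hexamer that the PPAR response element holds as a pair, and for the DR1 repeat, which is 2 such hexamers with 1 base between them. A looser DR1, with any base at the fourth position of each hexamer, was also searched. The hexamer is part of the strict DR1, and each strict DR1 is also a loose one. The hexamer was found once each in Cpt1a, Acadm and Plin2, and in 14% of all 32851 windows of the same length. The strict DR1 was in 0.0335% and the loose DR1 in 0.338% of all windows, and neither was in these 7. The windows with the hexamer are shown to place it beside Cpt1a, which differed between the sera, and beside 2 members that did not pass the threshold. The Cpt1a window lies inside the gene coordinates given above, so it precedes a RefSeq start other than the outermost annotated one. All 250 bases of the Fabp3 window lie in annotated exons. Bases inside annotated exons were trimmed from the end nearest the start. The sequences are from RefSeq, build GRCm38.p6, and run along the strand of the gene, with the hexamer in capitals; it reads TGACCT because it is on the opposite strand. Cpt1a is chr19:3323051-3323284 on the plus strand, Acadm is chr3:153944644-153944893 on the minus strand, and Plin2 is chr4:86670061-86670309 on the minus strand.
Cpt1a: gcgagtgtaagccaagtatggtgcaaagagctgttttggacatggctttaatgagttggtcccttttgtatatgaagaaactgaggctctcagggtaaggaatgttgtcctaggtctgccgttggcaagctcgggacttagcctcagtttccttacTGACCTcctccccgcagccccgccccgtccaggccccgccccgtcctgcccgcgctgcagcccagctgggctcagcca
Acadm: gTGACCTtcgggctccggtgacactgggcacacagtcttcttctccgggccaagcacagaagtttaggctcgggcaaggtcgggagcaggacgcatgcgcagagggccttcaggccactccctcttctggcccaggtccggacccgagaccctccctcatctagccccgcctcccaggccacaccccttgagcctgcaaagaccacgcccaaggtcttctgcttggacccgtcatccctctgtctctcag
Plin2: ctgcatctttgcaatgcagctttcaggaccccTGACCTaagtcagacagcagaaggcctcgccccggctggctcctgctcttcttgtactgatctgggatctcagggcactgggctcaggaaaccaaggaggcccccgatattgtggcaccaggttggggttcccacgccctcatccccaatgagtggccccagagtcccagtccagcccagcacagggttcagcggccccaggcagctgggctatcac

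The hexamer began 94 bases before the start in Cpt1a, 218 in Plin2 and 249 in Acadm. Thus Cpt1a, with a 2.11-fold range of group means, and Plin2, with a 1.29-fold range, both held it, while Cpt2 and Acadl did not hold these letters in their windows.

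Cells kept in Rcm were first compared with cells kept in Scm, which asks how the 2 sera differ in the steady state. A gene was called as a DEG where the absolute log2 fold change exceeded 0.58 and the adjusted p was under 0.05 in edgeR's quasi-likelihood test, with Benjamini-Hochberg adjustment over all genes tested. Angptl4, Cpt1a and Fabp4 rose, 3 of 10 members, where 1.67% of all genes tested were called higher. Angptl4 and Cpt1a became members through 24 h contrasts that used these same Rcm and Scm libraries. Their results here, and in the 12 h contrasts against Rcm or Scm, are therefore not independent of that choice. Nor are the counts of members set beside the shares over all genes. Angptl4 was 3.51-fold higher, with a log2 fold change of 1.81 (SE 0.19, edgeR adjusted p = 7.00e-05). Cpt1a was 2.11-fold higher, with a log2 fold change of 1.08 (SE 0.14, edgeR adjusted p = 0.000462). Fabp4 had a log2 fold change of 1.78 (SE 0.41, edgeR adjusted p = 0.0259). The Fabp4 call was lost when Scm replicate 1 (adjusted p = 0.135), Scm replicate 2 (0.0564), Scm replicate 3 (0.0570), Rcm replicate 1 (0.0619) or Rcm replicate 2 (0.154) was left out, and when the 2 groups were fitted alone (0.106).

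Smaller differences in the same comparison passed the adjusted p without the fold threshold. These were Acadl, with a log2 fold change of 0.43 (edgeR adjusted p = 0.00682), and Cpt2, with 0.44 (edgeR adjusted p = 0.0420). The libraries of the groups did not overlap for 6 members, all higher in Rcm, where 12.8% of all genes tested were higher without overlap. The median log2 fold change of the 10 members was 0.35, against 0.01 over all genes tested. Acadm had a log2 fold change of 0.07, with a 95% interval from -0.18 to 0.32, and Plin2 one of 0.17, with an interval from -0.02 to 0.36. The interval of Fabp3 ran from -2.58 to 0.02 and that of Pdk4 from -0.63 to 1.02, so neither excluded a change of the threshold size.

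The summed level of the 8 adipocyte markers was 16.3 to 19.3 CPM in Rcm and 14.2 to 16.4 CPM in Scm, and the expressed ones were Lipe and Cebpa. Fabp4 is also known as an adipocyte gene, while Adipoq, Cidec, Lep, Retn and Cfd were at 0 counts in these libraries too.

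The move from Scm to Rcm was then followed at 12 h. Angptl4 and Cpt1a rose, 2 of 10 members, where 0.598% of all genes tested were called higher. Angptl4 was 4.004-fold higher than in Scm, with a log2 fold change of 2.001 (SE 0.19, edgeR adjusted p = 2.99e-05). Cpt1a was 1.94-fold higher, with a log2 fold change of 0.95 (SE 0.14, edgeR adjusted p = 0.00372). The groups did not overlap for 8 members, all higher in S-Rcm 12 h, where 14.4% of all genes tested were higher without overlap. The members that were not called included Cpt2, with a log2 fold change of 0.45 (edgeR adjusted p = 0.0593), Acaa2, with 0.35 (0.195), and Plin2, with 0.29 (0.127). The median over the members was 0.32, against 0.02 over all genes tested.

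The reverse move, from Rcm to Scm, was also followed at 12 h. Angptl4 and Cpt1a fell, 2 of 10 members, where 1.22% of all genes tested were called lower. Angptl4 had a log2 fold change of -0.96 (SE 0.18, edgeR adjusted p = 0.00485), and Cpt1a one of -0.88 (SE 0.14, edgeR adjusted p = 0.00223). Acadl had a log2 fold change of -0.41 (edgeR adjusted p = 0.00761), which was under the fold threshold. Acaa2 had -0.40 (0.0807) and Acadm -0.31 (0.162). The libraries were all lower without overlap for 6 members, where 11.7% of all genes tested were, and Fabp3 was higher in all 3 R-Scm 12 h libraries. The median over the members was -0.38, against -0.01 over all genes tested. Plin2 had a log2 fold change of 0.20 in this direction, with a 95% interval from 0.01 to 0.38 and an edgeR adjusted p of 0.259.

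The 24 h contrasts against the starting serum had singled out Angptl4 and Cpt1a, so their values are given as a description. The counts in these contrasts follow from the choice of members, and nothing is read from them against the shares over all genes. In R-Scm 24 h against Rcm, both were lower, 2 of 10 members, where 0.195% of all genes tested were called lower. Their log2 fold changes were -1.15 and -0.93. Both calls were lost without R-Scm 24 h replicate 3 and when the 2 groups were fitted alone. In S-Rcm 24 h against Scm, both were higher, 2 of 10 members, where 0.221% of all genes tested were called higher. Their log2 fold changes were 1.98 for Angptl4 and 0.89 for Cpt1a. The Cpt1a call was lost without any 1 of Scm replicates 1, 2 and 3 and S-Rcm 24 h replicates 1 and 3, with log2 fold changes of 0.86 to 0.92. These contrasts share the Rcm and Scm libraries with those at 12 h and with the comparison of the starting groups. Counts and tests of Angptl4 and Cpt1a there thus partly follow from the choice of members too. Outside the calls, the nearest member in size of change was Fabp4, with a log2 fold change of 1.25 after the move to Rcm and -0.63 after the move to Scm, on 16 to 21 counts per library at 24 h.

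**Figure D3:**
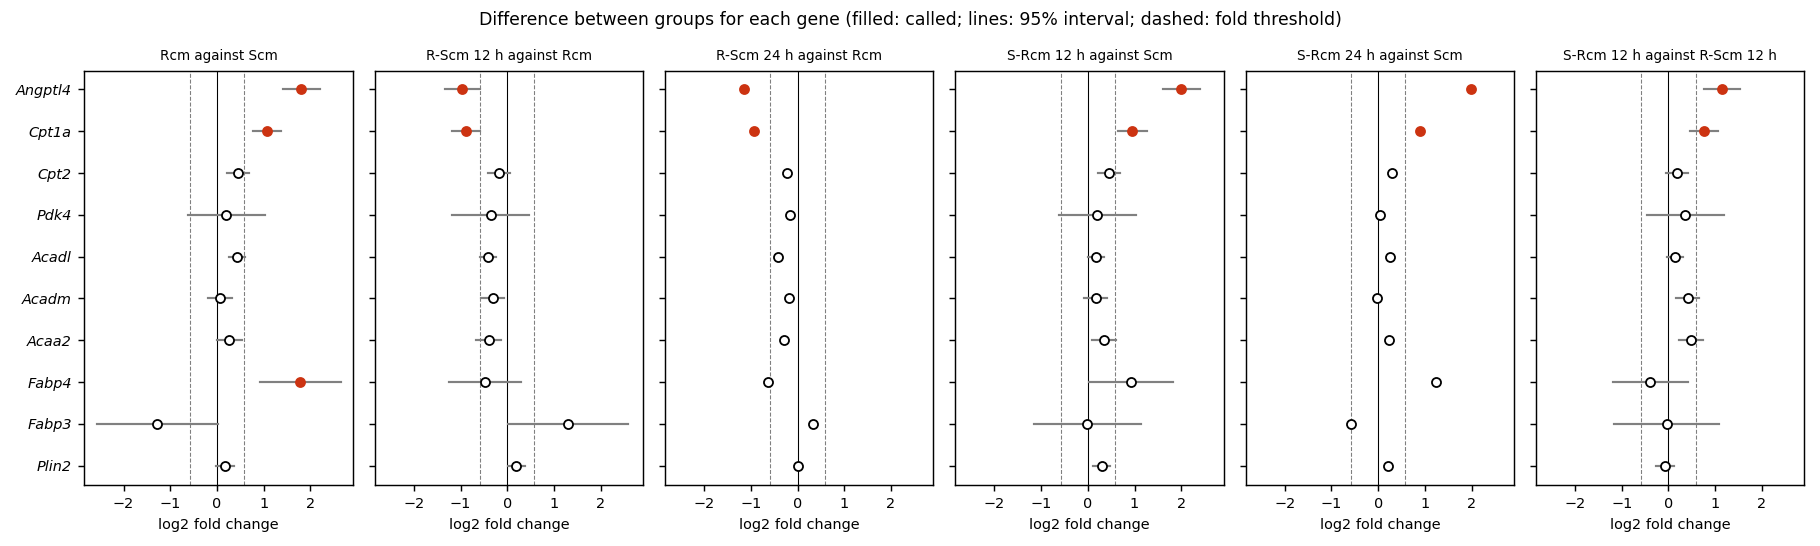
Log2 fold change (horizontal axis) of the 10 genes in 6 comparisons (panels). Filled points are called, lines are 95% intervals, dashed lines mark a log2 fold change of 0.58 in either direction, and no intervals are drawn for the 24 h contrasts that singled out members. Angptl4 and Cpt1a are called in each panel, and Fabp4 only in Rcm against Scm, where its log2 fold change is 1.78.

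The 2 exchanges were compared directly at 12 h, a contrast whose libraries were not part of the 24 h contrasts. Angptl4 and Cpt1a were higher in S-Rcm 12 h than in R-Scm 12 h, 2 of 10 members, where 1.03% of all genes tested were called higher. Angptl4 was 2.22-fold higher, with a log2 fold change of 1.15 (SE 0.18, edgeR adjusted p = 0.00292). Cpt1a was 1.69-fold higher, with a log2 fold change of 0.76 (SE 0.14, edgeR adjusted p = 0.00839). Without R-Scm 12 h replicate 3 the adjusted p of Cpt1a was 0.0517, with a log2 fold change of 0.71. Acaa2 had a log2 fold change of 0.48 (edgeR adjusted p = 0.0366), under the fold threshold, and Acadm one of 0.41 (edgeR adjusted p = 0.0606). The 6 members without overlap were all higher in S-Rcm 12 h, where 13.4% of all genes tested were higher without overlap. Plin2 had a log2 fold change of -0.08, with an interval from -0.26 to 0.11, which lies within the fold threshold. The summed adipocyte markers were 18.1 to 20.8 CPM in S-Rcm 12 h and 10.9 to 15.3 CPM in R-Scm 12 h, and as in the other groups these were reads of Lipe and Cebpa, with the other 6 markers at 2 counts or fewer. The part of Lipe and Cebpa in these differences was not tested.

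The response to the move to Scm was also tested against the response to the move to Rcm in 1 interaction contrast. It equals the Scm minus Rcm difference of the starting groups plus the R-Scm 12 h minus S-Rcm 12 h difference, and so adds no separate libraries. It was called lower for 5 of 10 members, where 1.13% of all genes tested were called lower. For Angptl4 and Cpt1a this is not independent of the choice of members, because the Rcm and Scm libraries enter it. The log2 differences were -2.96 for Angptl4 (edgeR adjusted p = 1.50e-05), -1.83 for Cpt1a (0.000155), -0.75 for Acaa2 (0.0310), -0.62 for Cpt2 (0.0498) and -0.58 for Acadl (0.0123). Angptl4 and Cpt1a kept their calls with any 1 of the 12 libraries left out. Acaa2 and Cpt2 lost theirs with each of the 12 left out, with edgeR adjusted p of 0.0506 to 0.0953 for Acaa2 and 0.0648 to 0.131 for Cpt2. Cpt2 also lost its call with the replicate number as a block (edgeR adjusted p = 0.0547). Acadl lost its call by the fold threshold with 7 of the 12 libraries left out, and with DESeq2, at -0.57. Acadm had a log2 difference of -0.48 (edgeR adjusted p = 0.170). For Plin2 the log2 difference was -0.10, with a 95% interval from -0.36 to 0.17.

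The mean of both responses at 12 h was called for 0 of 10 members in edgeR, where 1.51% of all genes tested were called. At an unadjusted p under 0.05 there were 2 members, and DESeq2 called 0. These 2 were Angptl4, with a mean log2 response of 0.52 (edgeR adjusted p = 0.0319), and Plin2, with 0.25 (edgeR adjusted p = 0.0421). Both passed the adjusted p and lay under the fold threshold. The 2 responses of Angptl4 had opposite signs, at 2.001 after the move to Rcm and -0.96 after the move to Scm, so its mean gives no change that they share. The 2 responses of Plin2 had the same sign, at 0.29 after the move to Rcm and 0.20 after the move to Scm on the log2 scale.

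**Figure D4:**
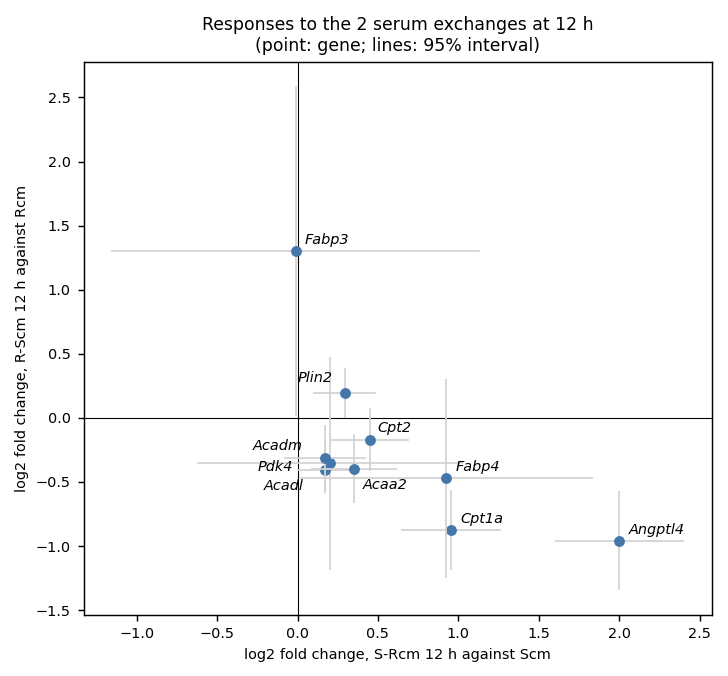
Log2 fold change at 12 h after the move to Rcm (horizontal axis, against Scm) and after the move to Scm (vertical axis, against Rcm) for the 10 genes, with 95% intervals as lines. Angptl4 lies at 2.001 and -0.96 and Cpt1a at 0.95 and -0.88, while Plin2 lies above 0 on both axes.

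The exchanged cells were next set against cells kept in the serum they had been moved to. Angptl4 in R-Scm 12 h remained 1.80-fold above Scm, with a log2 fold change of 0.85 (SE 0.19, edgeR adjusted p = 0.0107), 1 of 10 members, where 3.1% of all genes tested were called higher. Plin2 in R-Scm 12 h had a log2 fold change of 0.37 against Scm (edgeR adjusted p = 0.0187), under the fold threshold. Cpt1a in R-Scm 12 h had 0.20 against Scm, with a 95% interval from -0.10 to 0.50. At 24 h Angptl4 had a log2 fold change of 0.66 against Scm (edgeR adjusted p = 0.156), and its 3 libraries were still above all 3 Scm libraries. In R-Scm 24 h against Scm, where 0.592% of all genes tested were called, 0 members were called by edgeR or DESeq2, and 3 had an unadjusted p under 0.05.

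In the other direction, edgeR called 0 members in S-Rcm 12 h against Rcm, where 0.871% of all genes tested were called, and 0 in S-Rcm 24 h against Rcm, where 0.221% were. At an unadjusted p under 0.05 there were 2 and 1 members, and DESeq2 called 0 in both. Angptl4 in S-Rcm 12 h had a log2 fold change of 0.19 against Rcm, with a 95% interval from -0.18 to 0.56. Cpt1a had -0.12, with an interval from -0.42 to 0.18, although all 3 of its S-Rcm 12 h libraries were below the Rcm libraries. Acadl had -0.26 (edgeR adjusted p = 0.138), again with all 3 libraries lower.

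Between 12 h and 24 h of one exchange, edgeR called 0 members after the move to Scm, where 0.774% of all genes tested were called, and 0 after the move to Rcm, where 0.156% were. At an unadjusted p under 0.05 there were 0 members in either, and DESeq2 called 0. The Angptl4 interval between time points was -0.57 to 0.19 after the move to Scm and -0.39 to 0.35 after the move to Rcm. For Cpt1a the intervals were -0.36 to 0.25 and -0.37 to 0.24. Changes of the threshold size were therefore outside these intervals for both genes.

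Other genes of fatty acid metabolism were taken from lists, each counted whole. Over all 15381 genes tested, 0.338% to 2.74% were called in either direction in the 6 comparisons. At an unadjusted p under 0.05 there were 1247 to 3293 of them. Each call of a list gene given below was lost without at least 1 library of its groups, except those of Slc27a1, of Ndrg1 and Pdp2, and of Acsl3 and Ucp2 in R-Scm 12 h against Rcm. Of 19 other genes of mitochondrial beta-oxidation, all tested, 3 were called higher in S-Rcm 12 h against R-Scm 12 h, where 1.03% of all genes tested were. In each of the other 5 comparisons edgeR called 0 of the 19, with 5 to 7 at an unadjusted p under 0.05, and DESeq2 called 1 in R-Scm 12 h against Rcm and 0 in the other four. These were Acadvl, the very long-chain acyl-CoA dehydrogenase, with a log2 fold change of 0.63 (edgeR adjusted p = 0.0479), Eci1, an enoyl-CoA isomerase, with 0.69 (0.0262), and Acot2, a mitochondrial thioesterase, with 0.66 (0.0203). The Acadvl call was lost without any 1 of 5 of the 6 libraries, the Acot2 call without any 1 of 4 and the Eci1 call without any 1 of 3. Acadvl was at 43.4 ± 11.4 CPM in R-Scm 12 h, 67.1 ± 7.58 in S-Rcm 12 h, 55.4 ± 8.40 in Rcm and 60.3 ± 2.67 in Scm. R-Scm 12 h replicate 3 was the lowest of the 18 libraries in Acadvl, at 31.3 CPM, and in Eci1, at 16.4 CPM. The median of this list was 0.19 in that comparison, against 0.01 over all genes tested. Acot2 was at 17.6 ± 2.12 CPM in S-Rcm 12 h and at 11.1 ± 0.526 CPM in R-Scm 12 h, with 17.2 ± 2.48 CPM in Scm. Acot1, the cytosolic thioesterase, had a log2 fold change of 0.70 in the same comparison (edgeR adjusted p = 0.0447). Acot1 and Acot2 are close paralogs, and the counting rule for shared reads is not given in the sources used here, so these values are uncertain.

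The list of 15 other PPAR-responsive genes held 8 tested genes. Ucp2, which encodes a mitochondrial carrier of the inner membrane, fell in R-Scm 12 h against Rcm, with a log2 fold change of -0.81 (SE 0.10, edgeR adjusted p = 0.000170). It was higher in S-Rcm 12 h than in R-Scm 12 h, with a log2 fold change of 0.62 (edgeR adjusted p = 0.00310), and in S-Rcm 24 h than in Scm, with 0.59 (edgeR adjusted p = 0.0151). Ucp2 was at 71.7 ± 7.08 CPM in Rcm and 40.9 ± 3.33 CPM in R-Scm 12 h, against 49.8 ± 1.15 in Scm and 62.7 ± 1.90 in S-Rcm 12 h. The hormone gene Fgf21 and the secreted factor gene Angptl8 had at most 2 counts in any library, and Adipoq had 0.

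Of 16 genes of fatty acid uptake, binding and activation, 9 were tested. In Rcm against Scm, 2 were called higher, where 1.67% of all genes tested were, and 1 lower, where 0.631% were. Lpl, the lipase that ANGPTL4 inhibits, rose by 1.51 on the log2 scale (SE 0.35, edgeR adjusted p = 0.0262), from 1.83 ± 0.677 CPM in Scm to 5.2 ± 0.856 CPM in Rcm. The Lpl call was lost without any 1 of 4 of the 6 libraries. After the move to Scm, Lpl was at 5.54 ± 1.92 CPM at 12 h and 3.79 ± 0.511 at 24 h. After the move to Rcm it was at 2.73 ± 0.937 CPM at 12 h and 2.43 ± 1.13 at 24 h. Acsl3, an acyl-CoA synthetase, had a log2 fold change of 0.66 (edgeR adjusted p = 0.0321). Slc27a1, a fatty acid transport protein, had -0.65 (edgeR adjusted p = 0.00325), and it was also lower in S-Rcm 12 h than in Scm, at -0.73 (edgeR adjusted p = 0.00415), and in S-Rcm 24 h than in Scm, at -0.80 (edgeR adjusted p = 0.00478). It was the 1 gene of this list called in each of these contrasts against Scm, where 0.26% of all genes tested were called lower at 12 h and 0.117% at 24 h. In R-Scm 12 h against Rcm, 2 of the 9 were called lower, where 1.22% of all genes tested were. Acsl3 was lower by a log2 fold change of -0.89 (edgeR adjusted p = 0.00384), and so was Fabp5, another fatty acid binding protein, by -0.68 (edgeR adjusted p = 0.0275). In R-Scm 24 h against Rcm and between the exchange groups at 12 h, edgeR called 0 of the 9, with 1 and 3 at an unadjusted p under 0.05, and DESeq2 called 0 and 1. Cd36, Fabp1, Fabp7, Slc27a2 and Gpihbp1 were at 0 counts in all libraries.

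Of 17 peroxisomal and microsomal genes, 13 were tested. The peroxisomal transporter gene Abcd2 rose in Rcm against Scm, with a log2 fold change of 1.03 (edgeR adjusted p = 0.0430). Cyp4a10 and Cyp4a14, targets of PPARα in liver, were at 0 counts. Of 15 lipid droplet and lipolysis genes, 9 were tested, and the hormone-sensitive lipase gene Lipe fell in R-Scm 12 h against Rcm, with a log2 fold change of -0.66 (edgeR adjusted p = 0.0430). Of 8 genes that control pyruvate dehydrogenase, all tested, the phosphatase gene Pdp2, whose product acts against the PDK kinases, fell in the same comparison, with -0.72 (edgeR adjusted p = 0.00452), whereas Pdk4 itself had -0.35 (edgeR adjusted p = 0.701).

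Angptl4, Pdk4 and Plin2 are also known to respond to hypoxia or glucocorticoids, and these lists were counted in the same way. Of 12 hypoxia-responsive genes, 11 were tested. Adm was called higher in Rcm against Scm, at 1.77 (edgeR adjusted p = 0.0430), Egln3 was called higher in R-Scm 12 h against Rcm, at 0.88 (edgeR adjusted p = 0.00761), and Ndrg1 was called lower in S-Rcm 12 h against Scm, at -1.02 (edgeR adjusted p = 1.91e-05). Each was 1 of 11 genes, where 1.67%, 1.51% and 0.26% of all genes tested, in this order, were called in that direction. Of 10 glucocorticoid-responsive genes, 8 were tested. In R-Scm 12 h against Rcm, 2 were called higher, where 1.51% of all genes tested were, and 1 lower. Sgk1 was called higher at 0.64 (edgeR adjusted p = 0.0269) and Mt2 at 1.04 (edgeR adjusted p = 0.0153), and Per1 was called lower at -0.59 (edgeR adjusted p = 0.0261). Per1 was also lower in S-Rcm 12 h against Scm, at -0.63 (edgeR adjusted p = 0.0376), and Sgk1 in S-Rcm 12 h against R-Scm 12 h, at -0.59 (edgeR adjusted p = 0.0392), where 1.6% of all genes tested were called lower. R-Scm 12 h replicate 3 was the library farthest from its group in these genes. Sgk1 was at 383, 388 and 631 CPM in R-Scm 12 h and at 298, 302 and 303 CPM in Rcm. Mt2 was at 83.3, 75.0 and 164 CPM in R-Scm 12 h, against 50.6, 53.2 and 53.1 in Rcm. Egln3 was at 30.3, 30.8 and 54.6 CPM in R-Scm 12 h, against 19.8 to 23.0 in Rcm. Without replicate 3 of R-Scm 12 h the calls of Sgk1 in both comparisons and those of Mt2, Egln3 and Per1 in R-Scm 12 h against Rcm were lost, with log2 fold changes against Rcm of 0.36 for Sgk1, 0.60 for Mt2, 0.55 for Egln3 and -0.43 for Per1. Other libraries mattered too. Sgk1 and Mt2 against Rcm were also lost without any 1 of Rcm replicates 1, 2 and 3, and Per1 without Rcm replicate 1 or 3. Sgk1 between the exchange groups was also lost without any 1 of the S-Rcm 12 h libraries. Per1 in S-Rcm 12 h against Scm was lost without any 1 of its 6 libraries. The Adm call was lost without any 1 of 5 of the 6 libraries. Adm rested on few reads, with 6 to 83 counts per library and a mean of 0.608 CPM in Scm. In the comparisons not named for the lists of other PPAR-responsive, lipid droplet, pyruvate dehydrogenase, hypoxia and glucocorticoid genes, edgeR called 0 of their genes, with 0 to 4 per list at an unadjusted p under 0.05, and DESeq2 called 1, in the lipid droplet list between the exchange groups.

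Over the 18 libraries, on the log2 CPM scale, the members most alike were Cpt1a and Acaa2, with a Pearson r of 0.87, and r was also 0.87 once group means were removed. Angptl4 and Cpt1a had an r of 0.85, but -0.42 once group means were removed. Their likeness thus lay between groups, while that of Cpt1a and Acaa2 remained once group means were removed. R-Scm 24 h replicate 1 was high in both, at 96.8 CPM for Cpt1a and 45.3 CPM for Acaa2. The other libraries of its group were at 56.1 and 60.9 CPM for Cpt1a and at 29.5 and 33.1 CPM for Acaa2. In Scm the 2 genes did not move together, at 64.3, 61.8 and 67.3 CPM against 34.0, 38.2 and 37.6 CPM. The share of single libraries in that r was not tested. These correlations are descriptions over libraries that share their serum groups. Among 13534 other genes with a mean of at least 1 CPM, those most like Angptl4 were Gprc5b (r = 0.91), Wnt9a (0.89) and Col7a1 (0.88), and those most like Cpt1a were Col3a1 (0.93), Medag (0.93) and Lpcat3 (0.91). For Pdk4 they were Zfyve1 (0.90), Aph1c (0.89) and Tob1 (0.87), and for Plin2 they were Cxcl1 (0.84), Rnf114 (0.84) and Mrps31 (0.83).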

How the data were processed

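RNA of MEFs from 18 samples was sequenced by the authors as paired-end mRNA libraries and aligned with HISAT2 to the mouse genome. The submitters' processing notes name the build GRCm38. The values used are the deposited raw counts of reads per gene, not normalized. The counting tool, its use of strand and its handling of reads that match several places are not given in the sources used here. All columns of the table were used. Groups were taken from the sample labels.

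From the counts, genes were filtered with filterByExpr (edgeR 4.0.16 in R 4.3.3), which removed 40106 of 55487 genes. Libraries were scaled by TMM, with factors of 0.963 to 1.03, and CPM is on that scale. A mean per group was fitted to all 18 libraries with the robust quasi-likelihood test of edgeR, without covariates, and p-values were adjusted over 15381 genes. The thresholds are those of the study's methods, while the study tested with DESeq2. SE is the log2 fold change divided by the square root of F. The comparison of the 2 exchanges at 12 h and the interaction were added to the study's 5 comparisons. The tests were tested on simulated data. The named genes were all 10 members, list genes called or under detection, and 3 genes most alike by correlation for each of 4 members. The members and all lists were chosen with earlier results of these data known. Alternatives were DESeq2 1.42.0, other scalings, filters and thresholds, the compared groups alone, the replicate number as a block, and each library left out. Similar transcripts were searched with blastn 2.17.0, at 90% identity or more over at least 100 bases, in a gene annotation of the same build. Protein sequences were not analysed here, and some genes of the lists are not reported here. Counting error and the 3 libraries per group limit precision, and no library pair differed by less than sampling noise.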

Additional observations from a re-analysis of the deposited data

Results flagged for a closer look

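The difference between the responses to the 2 exchanges at 12 h passed the test of the difference itself for 5 members. The R-Scm 12 h response minus the S-Rcm 12 h response was -2.96 for Angptl4, -1.83 for Cpt1a, -0.62 for Cpt2, -0.58 for Acadl and -0.75 for Acaa2 on the log2 scale. The calls of Angptl4 and Cpt1a remained with each of the 12 libraries left out in turn, with the replicate number as a block and with DESeq2. These 2 genes became members through 24 h contrasts that used the same Rcm and Scm libraries. Their results here are therefore not independent of that choice, and leaving out a library does not change this. The call of Acaa2 was lost with each of the 12 left out. That of Cpt2 was lost with each of the 12 left out and with the block (edgeR adjusted p = 0.0547). That of Acadl was lost with 7 of the 12 left out and with DESeq2, by the fold threshold. With a block on the column numbers, chosen after seeing the data, only the calls of Angptl4 and Cpt1a remained. Groups of 3 libraries are too small for a test of a single outlying value, so none was run on the members.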

How the results depend on the processing

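Angptl4 kept its call under all alternatives run in Rcm against Scm, in both 12 h contrasts against the starting serum and in S-Rcm 12 h against R-Scm 12 h. There its edgeR or DESeq2 adjusted p did not exceed 0.0271. Cpt1a kept its call in the same comparisons except for the loss without R-Scm 12 h replicate 3 given above. The number of members called in Rcm against Scm, 3, became 5 with no fold threshold, and was 2 to 3 with 1 library left out. In R-Scm 24 h against Rcm it became 0 with the 2 groups alone, and was 0 to 2 with 1 library left out. In S-Rcm 24 h against Scm it became 1 at an adjusted p under 0.01, and was 1 to 2 with 1 library left out. In S-Rcm 12 h against R-Scm 12 h it was 1 to 2 with 1 library left out. Changes of sign were seen for values near 0. With no scaling factors, Plin2 was -0.0113 in R-Scm 24 h against Rcm and Fabp3 was 0.0286 in S-Rcm 12 h against Scm. With 1 library left out, the log2 fold changes that changed sign ran from -0.000952 to 0.101 for Acadm in Rcm against Scm. In R-Scm 24 h against Rcm they ran from -0.863 to 0.130 for Pdk4, -0.0817 to 1.45 for Fabp3 and -0.0246 to 0.0895 for Plin2. They ran from -0.493 to 0.286 for Fabp3 in S-Rcm 12 h against Scm, from -0.521 to 0.259 for Fabp3 in S-Rcm 12 h against R-Scm 12 h, and from -0.132 to 0.118 for Pdk4 and -0.0759 to 0.0134 for Acadm in S-Rcm 24 h against Scm. The cause of these changes was not tested. The filter of at least 10 counts in every library left no value for Fabp3 and Fabp4.

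The labels do not say whether the replicate numbers of the sample titles pair the samples. Deviations of same-numbered libraries correlated between -0.196 and 0.346, and in 0 comparisons were all pairs over 0.1. In R-Scm 24 h against Rcm they were 0.0845, 0.159 and 0.346. With 3 libraries per group these correlations cannot exclude a pairing. With the replicate block, the numbers of members called were 3 in Rcm against Scm and 2 in each of the other 5 comparisons, and 4 in place of 5 in the interaction, where Cpt2 had an adjusted p of 0.0547. Pdk4 in R-Scm 24 h against Scm changed sign, to -0.0532, with the block. In S-Rcm 24 h, R-Scm 12 h and R-Scm 24 h, replicates 2 and 3 are numbered 3 and 4 in the deposited columns. Libraries that share a column number correlated between -0.208 and 0.123, and in 0 comparisons were all such pairs over 0.1. A block on the column numbers, chosen after seeing the data, gave 1 member in place of 2 in S-Rcm 24 h against Scm, 2 in place of 5 in the interaction, and 0 in place of 1 against the serum moved to, where Angptl4 in R-Scm 12 h against Scm had an adjusted p of 0.0511. The other 5 counts of members were as without it. Signs changed with it for Pdk4 in R-Scm 24 h against Rcm (0.0671), R-Scm 12 h against Scm (0.0616), S-Rcm 24 h against both Rcm (0.157) and S-Rcm 12 h (0.139), and the mean response (0.0397), for Plin2 in R-Scm 24 h (-0.0303) and S-Rcm 24 h (-0.0114) against Rcm, and against Scm for Fabp3 in R-Scm 12 h (-0.0124) and Acaa2 in R-Scm 24 h (0.00333). With 1 library left out, also chosen after seeing the data, the interaction gave 2 to 3 members. DESeq2 gave 4 in the interaction, where Acadl, at -0.57, was under the fold threshold. Over all genes, the number called in R-Scm 24 h against Rcm was 58, against 4 with the 2 groups alone and 165 with DESeq2. In S-Rcm 12 h against Scm it was 132, against 260 and 268, and in S-Rcm 24 h against Scm it was 52, against 90 and 135. With the 2 groups alone it was 237 in place of 421 in R-Scm 12 h against Rcm and 248 in place of 405 between the exchange groups. With 1 library left out, the number over all genes in R-Scm 24 h against Rcm ran from 14 without R-Scm 24 h replicate 3 to 501 without its replicate 1. It ran from 178 (Scm replicate 2) to 574 (Rcm replicate 3) against 354 in Rcm against Scm, from 275 (R-Scm 12 h replicate 3) to 420 in R-Scm 12 h against Rcm, from 36 (Scm replicate 1) to 76 in S-Rcm 12 h against Scm, from 6 (Scm replicate 1) to 28 in S-Rcm 24 h against Scm, and from 133 (S-Rcm 12 h replicate 1) to 473 between the exchange groups. At an adjusted p under 0.01 it was 7 to 227 over the 6 comparisons, against 52 to 421 at 0.05. Depth limits Fabp3 and Fabp4, with at most 19 and 37 counts per library.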
